A study of Mus musculus with 2 samples.

Results

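The genes described here are microRNA, small nucleolar RNA (snoRNA) and small Cajal body RNA (scaRNA) genes in mouse CD4+ T cells with and without Taf7. Taf7 is a TBP-associated factor of TFIID, which assembles with RNA polymerase II at promoters. The genes were chosen by symbol (Mir followed by a digit, Mirlet, Snora, Snord or Scarna) and by a mean of the 2 arrays of 7.7 or more on the deposited log2 scale. The values that chose them were therefore these levels, which are given as a description. Whether a gene at 7.7 or more was expressed was not tested. Of 19938 genes with a symbol of their own, 354 matched by symbol and 111 of those reached 7.7, among 10500 genes of any kind that did. The 111 were 66 microRNA genes, 2 microRNA host transcripts, 24 C/D box snoRNA genes (Snord), 17 H/ACA box snoRNA genes (Snora) and 2 scaRNA genes. The 243 matching genes that did not pass were 230 microRNA genes, 2 host transcripts, 7 C/D box genes, 3 H/ACA box genes and 1 scaRNA gene.

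A microRNA is cut from a hairpin in a longer RNA polymerase II transcript, first by Drosha with Dgcr8 in the nucleus and then by Dicer1 in the cytoplasm. It is loaded into an Argonaute protein and pairs with target mRNAs mainly through its seed, and microRNAs such as miR-150, miR-142 and miR-155 are known for their parts in lymphocyte development and activation. Most mammalian snoRNAs are released from introns of host genes, many of which encode ribosomal proteins. C/D box snoRNAs guide methylation of ribose in ribosomal RNA with fibrillarin, H/ACA box snoRNAs guide pseudouridine formation with dyskerin, and scaRNAs guide the same changes on spliceosomal RNA in Cajal bodies.

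The mature microRNAs below are those that the results turn on and for which RefSeq (GRCm38.p6) gave a sequence. They belong to the gene past 1.5-fold with an entry (Mir375), to lymphocyte microRNAs, to the member furthest on the lower side (let-7d), and to seeds that more than 1 member shares. For Mir375 only the 5p sequence was given, so the sequence and seed of its 3p arm are not shown. Each is written from the 5′ end with the seed, bases 2 to 8, in capitals.
miR-375-5p: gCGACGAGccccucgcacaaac
miR-142a-3p: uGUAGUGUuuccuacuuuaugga
miR-142a-5p: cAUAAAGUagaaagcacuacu
miR-342-3p: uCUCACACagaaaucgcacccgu
miR-210-3p: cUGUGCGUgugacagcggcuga
miR-212-3p: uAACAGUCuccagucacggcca
let-7d-5p: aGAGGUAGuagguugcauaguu
miR-25-3p: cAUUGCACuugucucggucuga
miR-92b-3p: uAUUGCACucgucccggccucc
miR-326-3p: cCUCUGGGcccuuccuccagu
miR-330-5p: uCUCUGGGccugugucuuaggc
miR-194-5p: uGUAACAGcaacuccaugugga
miR-219a-5p: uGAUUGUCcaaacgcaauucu
miR-680: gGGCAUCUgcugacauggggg
The miR-375-5p sequence lies at chr1:74900696-74900717 on the minus strand, miR-142a-3p at chr11:87756903-87756925 on the plus strand and let-7d-5p at chr13:48536078-48536099 on the minus strand.

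The knockout cells came from mice with 1 floxed and 1 null Taf7 allele and the 8EIII-cre transgene (TAF7 f/- 8EIII-cre+, called Taf7 -/-). The control cells came from mice with the same alleles and no Cre (TAF7 f/- 8EIII-cre -, called Taf7 +/-), so the control too lacked 1 copy of Taf7. Both were of a mixed C57/BL6 and 129 background, and splenic cells high for TCRbeta and CD4 were sorted by flow cytometry, with enrichment for low CD44; the labels give no age, number of mice or pooling, and do not say in which cells 8EIII-cre is active. Total RNA from each genotype was hybridized to 1 array, so no difference below has a replicate check, an error or a test.

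Taf7 itself read 8.34 in the heterozygote and 7.79 in the knockout, which was 1.46-fold lower (-0.55 in log2 units). All 8 measured CD4 T cell markers were between 11.06 and 13.50 on both arrays; 3 were higher and 5 lower in the knockout, with Cd3d at -0.50, Cd28 at -0.42 and Cd4 at -0.22. Of the markers of other cells, 1 of 8 measured for B cells (Cd79b), 0 of 12 for myeloid cells, 1 of 5 for NK and CD8 T cells (Cd8b1) and 1 of 6 for erythroid cells and platelets (Itga2b) reached a mean of 7.7; Cd79b read 8.24 and 8.23, and Cd8b1 10.50 and 10.24, in the heterozygote and knockout. Beside 82.5% of all genes under 7.7, where most of these markers lay, the knockout was on the higher side for 6 of 8 B cell markers (median 0.24; 5.38 to 8.24 in the heterozygote, 5.73 to 8.23 in the knockout), 8 of 12 myeloid markers (median 0.13; 5.86 to 7.83 and 6.01 to 7.66) and 6 of 6 erythroid and platelet markers (median 0.20; 4.91 to 8.14 and 4.98 to 8.37), and for 1 of 5 NK and CD8 T cell markers (median -0.03). Itgam, a myeloid marker, differed most, at 7.83 and 7.04 (-0.79). The part of such cells in the differences below was not tested. A lower signal in such a sort can mean fewer cells of a type or less RNA per cell, and these cannot be told apart. Levels below are always given for the heterozygote first and then for the knockout, in log2 units, and a difference is the knockout minus the heterozygote.

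The microRNA genes lay almost all on the higher side in the knockout. Of the 66 microRNA genes, 63 were higher (95.5%) and 3 lower, with a median difference of 0.25, quartiles of 0.14 and 0.35 and a range of -0.19 to 0.80. Some near the threshold passed it only through the array on which they were higher, as given below. Among all 10500 genes, 41.1% were higher and 58.9% lower, the median being -0.05; under quantile normalization of the arrays, 51.8% of all genes were higher. At 1.5-fold or more, 3 microRNA genes were higher, against 0.448% of all genes, and 0 were lower, against 3.16% of all genes. None of the 111 members reached 2-fold, a size at which 0.0381% of all genes were higher and 0.324% lower.

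**Figure D1:**
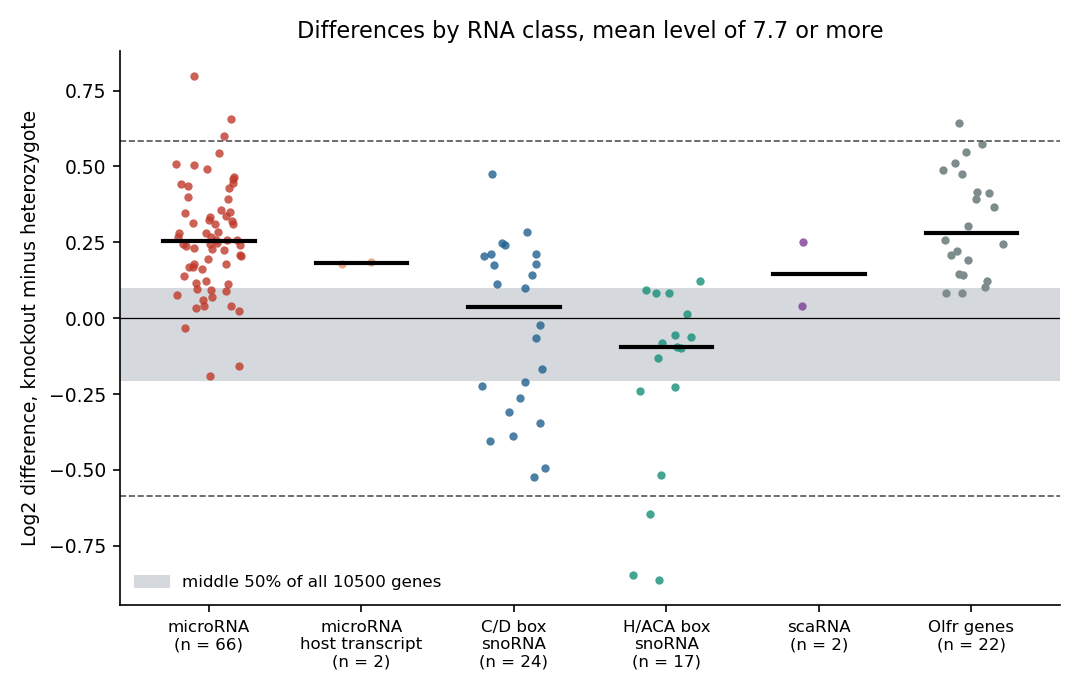
Log2 difference (knockout minus heterozygote, 1 array each) of every member gene by class, with 22 olfactory receptor (Olfr) genes at the right; black bars are medians, the grey band is the middle 50% of all 10500 genes and the dashed lines mark 1.5-fold. The microRNA genes sit around a median of 0.25 with 3 below 0, while C/D box genes lie on both sides of 0 and the lowest H/ACA box gene is at -0.86.

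Mir505 stood furthest out among the microRNA genes. Its signal was 9.38 on the heterozygote array and 10.18 on the knockout array, 1.74-fold higher (0.80). Mir375, best known from pancreatic islet cells, read 7.80 and 8.45, a difference of 0.66 or 1.58-fold. Mir328 read 9.04 and 9.64, a difference of 0.60 or 1.52-fold. These were the 3 genes past 1.5-fold, and Mir375 no longer passed it when the trend of difference with mean level was removed, at 0.58. They were followed by Mir150, a microRNA of mature lymphocytes, with 7.78 and 8.33, then by Mir194-2 with 7.65 and 8.16 and Mir330 with 7.82 and 8.33, each 0.50 to 0.54 higher. Mir194-2 was under the threshold of 7.7 in the heterozygote and passed it only through its knockout value.

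The 3 microRNA genes on the lower side differed little. Mirlet7d, of the let-7 family that restrains proliferation and growth genes, read 7.89 and 7.699, a difference of -0.19. Mir697 read 8.52 and 8.36, a difference of -0.16. Mir219a-1 was nearly equal at 8.83 and 8.80, and its difference turned to 0.017 with centring, 0.020 with the trend with level removed and 0.039 under quantile normalization. On the higher side the smallest differences were those of Mir673, at 8.72 and 8.75, and Mir142, at 10.50 and 10.54, a microRNA specific to blood cells and abundant in lymphocytes.

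**Figure D2:**
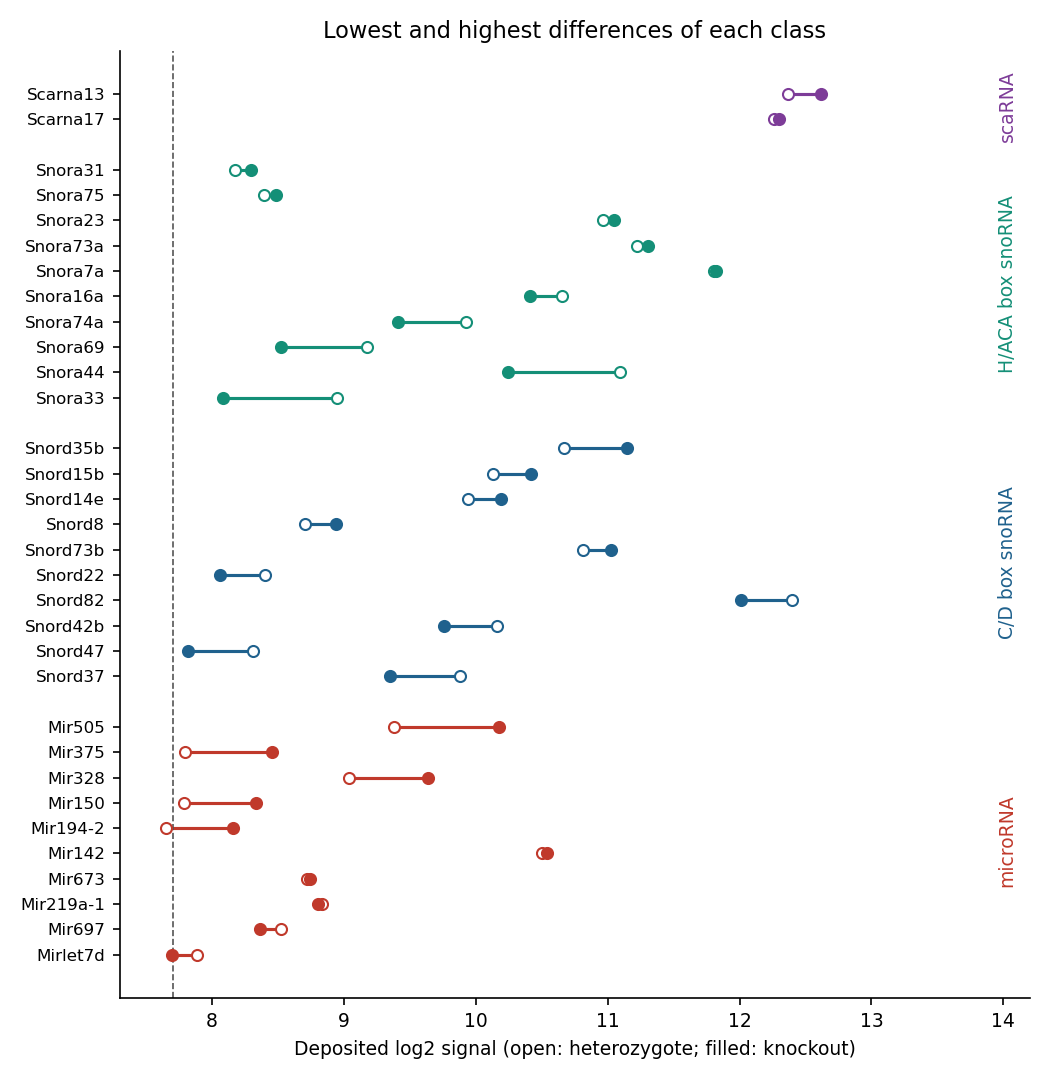
Deposited log2 signal in the heterozygote (open) and knockout (filled) of the 5 lowest and 5 highest differences in each class, with both scaRNA genes. The dashed line is the 7.7 threshold, and the microRNA pairs with the longest lines (Mir505, Mir375, Mir328) run to the right, while the longest H/ACA lines (Snora33, Snora44) run to the left.

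Among the microRNA genes with the strongest signals, the knockout was also on the higher side. Mir692-1 read 11.14 and 11.46, Mir346 read 10.05 and 10.44, Mir667 read 9.87 and 10.15 and Mir7-1 read 10.05 and 10.14. Signals of different transcript clusters depend on their probes, so their order is not an order of amounts. Just inside the threshold stood Mir143 (7.58 and 7.82), Mir106b (7.59 and 7.85) and Mir15a (7.66 and 7.80), and Mir504, also near it, read 7.52 and 7.97. Like Mir194-2, these were under 7.7 in the heterozygote and are members only through their knockout values, so their direction is no support for the class. Mirlet7d was under it in the knockout and passed through the heterozygote. Just outside stood Mir93 (7.52 and 7.87), Mir138-2 (7.72 and 7.66) and Mirlet7i (7.44 and 7.93).

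Most microRNA genes were higher in each range of signal. In the range from 7.7 to 8.2, 24 of 25 microRNA genes were higher (median 0.24), where 73.4% of all genes were higher with a median of 0.14. From 8.2 to 8.7, 14 of 15 were higher (median 0.31), where 45.6% of all genes were. From 8.7 to 9.2, 12 of 13 microRNA genes were higher (median 0.22), where 31.1% of all genes were higher with a median of -0.13. The step from 9.2 to 10.2 held 10 microRNA genes, all higher (median 0.27), where 30.0% of all genes were, and the 3 above it were higher too. Below 7.7 the bias to the knockout was general: 82.5% of all genes there were higher, with a median of 0.14, and of the 230 microRNA genes 170 were higher and 60 lower (median 0.10).

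**Figure D3:**
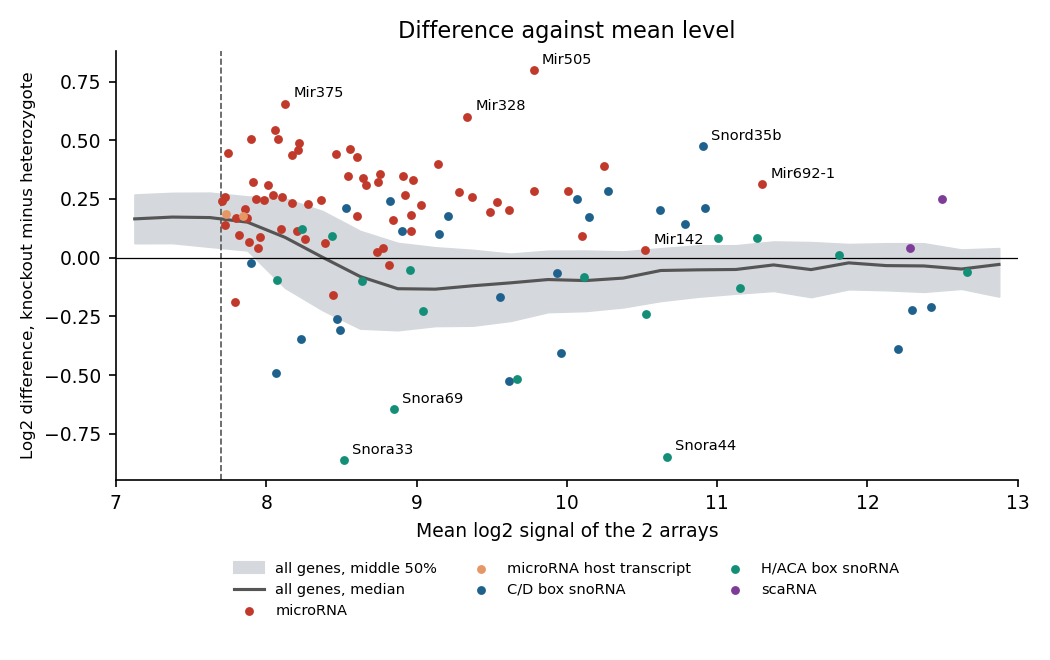
Log2 difference against the mean of the 2 arrays for each member by class; the line and grey band are the median and middle 50% of all genes at that level, and the dashed line is the 7.7 threshold. MicroRNA genes lie mostly above the median line at each level, with Mir505 highest at 0.80, while snoRNA genes lie on both sides of it.

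Other gene groups with a similar bias were set beside the microRNA genes after the values had been seen. Of 22 olfactory receptor genes with a mean of 7.7 or more, which encode odorant receptors of the nasal epithelium, all 22 were higher, with a median of 0.28. Of 218 other long noncoding RNA genes, 164 were higher, with a median of 0.17. Of 10045 protein-coding genes, 39.7% were higher, with a median of -0.05. Whether the microRNA differences share a source with those of the olfactory receptor genes was not tested.

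MicroRNAs with known parts in T cells were followed from a list of 80, of which 63 were measured and 12 reached 7.7. Of the 63, 48 were higher (76.2%) and 15 lower (median 0.15), beside 82.5% higher for all genes under 7.7, where most of the list lay, and 36 lay above the trend of all genes with level. Among the 12, Mir342 read 9.24 and 9.50, Mir212 read 8.73 and 9.08, Mir210, a microRNA induced by hypoxia and by T cell activation, read 9.51 and 9.72, and Mir25 read 8.47 and 8.81. Mir24-2 (8.16 and 8.39), Mir27a (7.91 and 8.00) and Mir30d (7.71 and 7.88) were higher by less. Mirlet7d was the one of the 12 on the lower side as deposited; with the trend with level removed, Mir27a (-0.024) and Mir15a (-0.011) were also on it.

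Several well-known T cell microRNA genes had signals under 7.7. Mir155, needed for T helper and B cell responses, read 7.41 and 7.81, and Mir181a-2, which tunes T cell receptor sensitivity, read 6.84 and 7.08. Mir125a read 7.12 and 7.76, a difference of 0.64. The opposite direction was seen for Mir15b, which restrains cell cycle and survival genes such as Bcl2, at 6.44 and 5.43 (-1.01). It was also seen for Mir18 of the growth-promoting Mir17 cluster at 7.08 and 6.43 (-0.65). That cluster was split: Mir19a (-0.39) and Mir19b-1 (-0.29) were lower too, while Mir17 (0.03) and Mir20a (0.18) were higher. The neighbour of Mir15b, Mir16-2, read 6.94 and 6.56, so both hairpins of that pair were on the lower side. The 2 host transcripts that reached a mean of 7.7 were Mir17hg, of the Mir17 cluster, at 7.64 and 7.82, and Mir99ahg, at 7.76 and 7.94. Mir17hg is a member only through its knockout value. The other transcript clusters of Mir99ahg, with means of 4.02, 4.79 and 6.06, differed by -0.035, -0.012 and -0.013. With its clusters averaged, Mir99ahg differed by 0.030.

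MicroRNAs typical of other tissues had mostly low signals. Of 23 on this list, 14 were measured and Mir375 was the one that reached 7.7. All 14 were higher, with a median of 0.18, beside 82.5% and 0.14 for all genes under 7.7, and 10 of the 14 lay above the trend of all genes with level. Liver Mir122 read 5.89 and 5.92, erythroid Mir451a 5.18 and 5.40, endothelial Mir126a 4.75 and 4.98, and muscle Mir1a-1 3.79 and 3.88. None of the 8 brain-type imprinted snoRNA genes listed had a measured row.

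MicroRNA genes within 10 kb of each other on one strand formed 12 groups with at least 1 member. Every hairpin was higher in 10 of them and the other 2 had hairpins on both sides. Counted by gene and not by group, 78.7% of all 296 microRNA genes were higher. Each group was kept because it holds a member, and 95.5% of microRNA members were higher. The member of the Mir194-2 group passed the threshold only through its knockout value. Mir25, Mir93 and Mir106b, 3 hairpins in an intron of Mcm7, were higher by 0.34, 0.35 and 0.26. Mir23a, Mir27a and Mir24-2 were higher by 0.45, 0.09 and 0.23, and Mir212 and Mir132 by 0.35 and 0.40. In the let-7 group the hairpins parted: Mirlet7d was lower by 0.19, while Mirlet7f-1 and Mirlet7a-1 were higher by 0.22 and 0.29. All 7 hairpins from Mir337 to Mir136 were higher, by 0.03 to 0.49.

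The run from Mir379 to Mir369 held 29 measured hairpins, part of an imprinted domain expressed from the maternal chromosome mainly in embryo, placenta and brain. Of the 29, 23 were higher and 6 lower (median 0.13, range -0.15 to 0.29). Their signals spanned means of 3.51 to 10.01, with 21 under 6 and 4 at 7.7 or more (Mir679, Mir667, Mir134 and Mir668). The hairpins of those 4 had a GC content of 48.6% to 62.0%, and those of the others a median of 41.8%.

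Hairpin GC content, examined after the values had been seen, ran with both the level and the difference of microRNA genes. Across the 258 microRNA genes with a RefSeq hairpin, the correlation of GC content was 0.75 (Pearson) and 0.77 (Spearman) with the mean level and 0.48 and 0.52 with the difference. These are descriptions across genes that share the same 2 arrays, with no test. With GC content under 40%, 19 of 36 genes were higher (median 0.01) and 0 reached 7.7. From 50% to 60%, 75 of 81 were higher (median 0.18), and at 60% or more 25 of 26 were higher (median 0.32) and 19 reached 7.7.

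Among the 50 members with a hairpin sequence, the correlation of GC content with the difference was 0.46 (Pearson) and 0.45 (Spearman), and with the mean level 0.01 (Pearson). Of these 50, 7 had a GC content under 50%, with Mir7-1 lowest at 41.7%, Mir142 at 42.2% and Mirlet7d at 44.7%. The differences of these 3 were 0.09, 0.03 and -0.19. Of the others, Mir129-1 (0.04) and Mir677 (0.08) were also below the lower quartile of the class, while Mir680-3 (0.19) and Mir679 (0.21) were above it. The part of GC content in the microRNA differences was not tested.

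**Figure D4:**
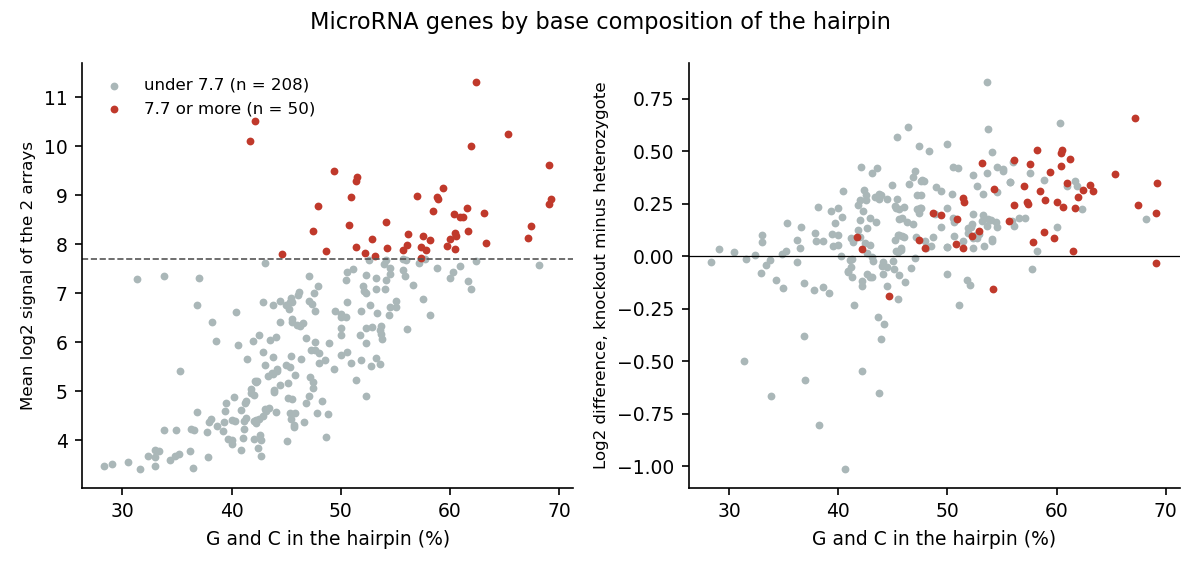
Hairpin GC content (percent, RefSeq GRCm38.p6) against the mean log2 signal and against the log2 difference for the 258 microRNA genes with a hairpin sequence, 50 of them at 7.7 or more (red) and 208 under it (grey). Signals and differences are both larger at higher GC content, and Mir142 and Mir7-1, the red points furthest left, have means of 10.52 and 10.10.

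Mature sequences were available for 50 of the 66 microRNA genes: 89 sequences with 83 distinct seeds, of which 5 were shared by at least 2 members. Mir25 and Mir92b share AUUGCAC and were higher by 0.34 and 0.25. Mir326 and Mir330, which share CUCUGGG, were higher by 0.26 and 0.50. The same mature sequence can come from genes on different chromosomes, and these did not always match: the 2 genes of miR-194-5p were higher by 0.06 (Mir194-1, chromosome 1) and 0.51 (Mir194-2, chromosome 19), and those of miR-219a-5p differed by -0.03 and 0.17. The 3 genes of miR-680 were higher by 0.07, 0.35 and 0.19.

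Most microRNA genes with a measured host differed from it. A host on the same strand was found for 17 members and was measured for 15, in 14 hosts. Of these hosts, 5 were higher and 9 lower (median -0.05), where 58.9% of all genes were lower. The microRNA difference lay above that of its host in all 15, in a class of which 95.5% were higher. Among the 15, Mir106b and Mir504 are members only through their knockout values, so their direction is no support. Under 7.7, same-strand pairs lay on both sides: Mir101b (0.52) was above Rcl1 (-0.27), and Mir186 (-0.67) was below Zranb2 (-0.12). Mir139 read 0.11 higher in the knockout while its host Pde2a, a cyclic nucleotide phosphodiesterase, went from 11.10 to 10.34 (-0.76). Mir330 was 0.50 higher and Eml2 0.27 lower. Mir342 was 0.26 higher with Evl, an actin regulator, at -0.02. In Mir697 and its host Sf3a3, a splicing factor, the differences were close, at -0.16 and -0.17.

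The C/D box snoRNA genes were evenly split. Of the 24, 12 were higher and 12 lower (median 0.04, range -0.52 to 0.47), where 41.1% of all genes were higher. None passed 1.5-fold, a size at which 0.448% of all genes were higher and 3.16% lower. Snord37 in Eef2 read 9.88 and 9.35, and Snord47 in Gas5 read 8.31 and 7.82. Snord42b (10.16 and 9.76) and Snord42a (8.65 and 8.34), both in Rpl23a, were both lower, as were Snord82 in Ncl (12.40 and 12.01) and Snord22 in Snhg1 (8.40 and 8.06).

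On the higher side among C/D box genes stood Snord35b, at 10.67 and 11.14, a difference of 0.47. Snord15b in Rps3 read 10.13 and 10.42, and Snord14e in Hspa8 read 9.94 and 10.19. Snord8 in Chd8 (8.702 and 8.94) and Snord73b in Rps3a1 (10.81 and 11.03) completed the 5 highest. Below 7.7 the 2 transcript clusters of Snord58b were lower by 1.06 and 1.04, at 7.77 and 6.71 and at 7.65 and 6.62, and Snord87 read 7.24 and 6.48.

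The H/ACA box snoRNA genes held the lowest differences of all members. Of the 17, 5 were higher and 12 lower (median -0.09), and 3 were at least 1.5-fold lower, against 3.16% of all genes. Snora33 read 8.95 and 8.08, a difference of -0.86 or 1.82-fold. Snora44 read 11.09 and 10.24 (-0.85, 1.80-fold) and Snora69 read 9.17 and 8.53 (-0.65, 1.57-fold). Outside these, Snora74a in Snhg4 was lower by 0.52 (9.93 and 9.41), and the other H/ACA genes lay between -0.24 and 0.12.

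The highest of the H/ACA box genes were close to equal on the arrays. Snora31 read 8.17 and 8.30, Snora75 8.39 and 8.48, Snora23 10.97 and 11.05 and Snora73a 11.22 and 11.30. Of the strongest H/ACA signals, Snora52 read 12.69 and 12.63 and Snora7a 11.81 and 11.82. The scaRNA genes were both higher, Scarna13 with 12.37 and 12.62 and Scarna17 with 12.26 and 12.30. With the scaRNA genes added the H/ACA group held 7 higher and 12 lower (median -0.08), which turned to 0.0046 under quantile normalization. The share on the higher side was 36.8%, and it was 47.4% with the trend with level removed and 52.6% under quantile normalization.

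The span of another gene held each of the 43 snoRNA and scaRNA members, and 23 of them had a host with a measured value of its own. Of the 20 hosts, 18 were lower and 2 higher (median -0.23), where 58.9% of all genes were lower. At means from 10.2 to 13, where most of the hosts lay, 36.7% of all genes were higher (median -0.05). The snoRNA and its host lay on the same side of 0 in 14 of 23 pairs, and the snoRNA lay below its host in 9 and above it in 14. Rps12, the host of Snora33, went from 12.53 to 12.30 (-0.23), a smaller difference than the -0.86 of its snoRNA, while Snhg12 and Rpl39, the hosts of Snora44 and Snora69, had no value of their own. Rps3a1 went from 10.93 to 10.16 (-0.77) while Snord73b inside it was 0.21 higher. Nop56, a core protein of C/D box particles, was 0.23 higher (11.86 and 12.08) with Snord57 inside it 0.21 lower. Across the 23 pairs the correlation was -0.16 (Pearson) and -0.09 (Spearman), a description over genes from the same 2 arrays.

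**Figure D5:**
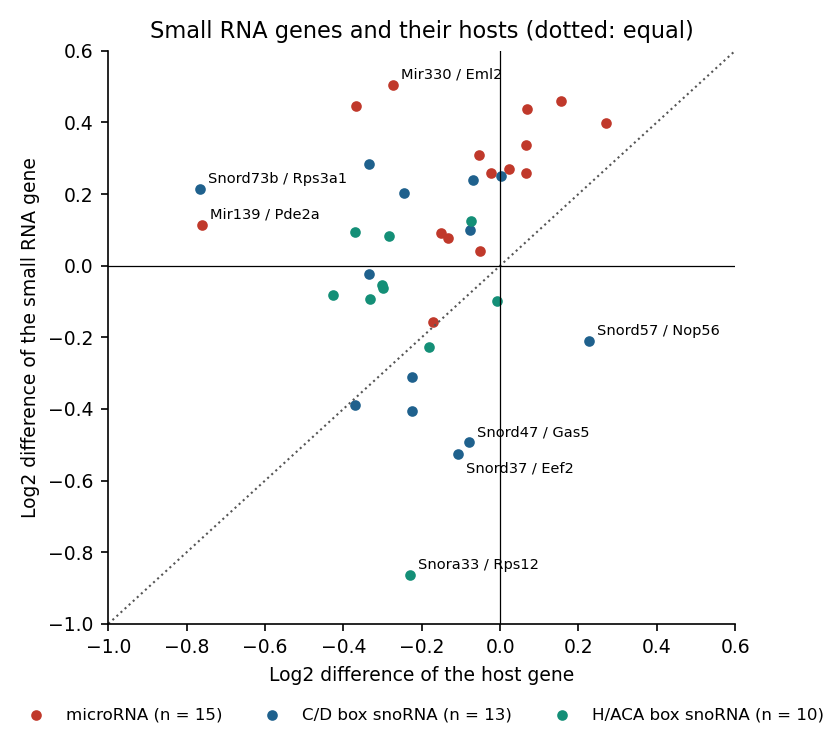
Log2 difference of each small RNA gene (vertical) against that of the gene it lies in (horizontal), for 15 microRNA and 23 snoRNA members with a measured host. All microRNA points lie above the dotted line of equality, and the snoRNA points lie on both sides of it.

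Hosts that hold 2 snoRNA members allowed them to be compared within a transcript, a comparison chosen after the values had been seen. Of 8 such hosts, the members lay on the same side in 3 and on opposite sides in 5. In Snhg12, a noncoding host, Snora44 was lower by 0.85 and Snora16a by 0.24 (10.65 and 10.41). In Ncl, which encodes nucleolin, Snord82 was lower by 0.39 and Snora75 higher by 0.09. In Rps3, Snord15a differed by -0.02 and Snord15b by 0.28. In Snhg3, Snora73a was higher by 0.08 and Snora73b lower by 0.13.

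Ribosomal protein genes, which host many snoRNAs, are known to start transcription within a pyrimidine tract. The run looked for had at least 7 C or T bases on the coding strand and reached within 5 bases of the annotated start. It was found in 11 of 27 snoRNA and scaRNA hosts with a promoter in the RefSeq table (40.7%), against 14.05% of 27025 genes and 2 of 16 microRNA hosts. Among ribosomal protein hosts, Rpl4, Rpl13a, Rpl27a and Rplp2 had it, and Rpl10, Rpl23, Rpl39, Rps3, Rps3a1, Rps12 and Rpsa did not. The other hosts with it were Ipo7, Rack1, Srcap, Snhg1, Snhg10, Snhg12 and 2410006H16Rik. The run held the annotated start itself in 6 of the 27 (22.2%), against 5.19% of all genes, and in the rest of the 11 it lay beside the start. The letters TATAA or TTATA, which are each other's reverse complement, stood in the 50 bases before the start of 3 of the 27 (11.1%), against 6.70% of all genes. One of the 6 is the noncoding host of Snora44 and Snora16a, Snhg12, shown with its run in capitals (chr4:132308628-132308727, plus strand, GRCm38.p6).
Snhg12: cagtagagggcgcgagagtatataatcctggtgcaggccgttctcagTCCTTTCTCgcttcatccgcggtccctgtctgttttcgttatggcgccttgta
The matches are descriptions of letters in a window and were not tested against the differences.

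The genes that make and use microRNAs, taken as a whole list, showed no common direction. Of 33 measured, 18 were higher and 15 lower (median 0.02), where 41.1% of all genes were higher. Of the 33, 22 lay above the trend of all genes with level. None passed 1.5-fold in either direction, a size at which 0.448% of all genes were higher and 3.16% lower. Drosha, the nuclear hairpin nuclease, read 9.92 and 9.56 (-0.35), and Tsn, a subunit of the C3PO nuclease, was lower by 0.40. Prkra, a Dicer partner with a mean under 7.7, read 7.27 and 6.78. Dicer1 read 11.22 and 11.12 and Dgcr8 differed by -0.05. Ago2, the Argonaute that cleaves paired targets, read 11.67 and 11.95 (0.28), and Tnrc6b, which links Argonaute to deadenylation, was higher by 0.26.

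Core proteins of H/ACA particles and most assembly factors were on the lower side. All 4 H/ACA core proteins were lower, with a median of -0.10 that was -0.018 with the trend with level removed and -0.013 under quantile normalization: Dkc1, the pseudouridine synthase dyskerin, read 10.36 and 10.04, and Gar1, Nhp2 and Nop10 differed by -0.15, -0.04 and -0.02. Of the 4 C/D core proteins (median -0.01), Nop58 read 9.997 and 9.695, Fbl, the methyltransferase fibrillarin, 10.92 and 10.81, and Snu13 was higher by 0.08. Of 19 assembly and Cajal body factors, 16 were lower and 3 higher (median -0.16), where 58.9% of all genes were lower. In the ranges of signal from 8.7 to 9.2 and from 9.2 to 10.2, 31.1% and 30.0% of all genes were higher. Naf1, which brings H/ACA particles together before Gar1 joins, read 8.89 and 8.28, a difference of -0.61 or 1.53-fold. It was the 1 factor of the 19 past 1.5-fold, against 3.16% of all genes at least 1.5-fold lower. Pih1d1 of the R2TP assembly complex was lower by 0.58.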

How the data were processed

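The authors' deposited values were log2 gene intensities for 2 arrays of total RNA from sorted splenic CD4+ T cells, 1 per genotype, which per the series' design text were made by RMA in Affymetrix Expression Console 1.1 on the core gene set. That text names an exon array, while the probe table describes a gene-level array. RNA was isolated with RNeasy columns per the labels' protocols; whether a small RNA gene's signal comes from the short RNA, its precursor or its host was not tested. Of 35556 transcript clusters, 21789 had 1 symbol, and for each gene the cluster with the highest mean was used. With 1 array per genotype there is no test, and precision is limited by that number. Genes were named by size of difference, level, list and position, as fixed in the design; genes named for hairpin GC content or for a shared host were added after their values were seen. The members and lists were chosen with earlier results of these data known. Hosts, sequences and clusters came from RefSeq tables (GRCm38.p6); snoRNA strand was not used. Python 3.11.15, pandas 2.3.3 and statsmodels 0.14.6 were used, and the calculation was tested on simulated data. Alternatives were centring, loess removal of the trend with level (span 0.3), quantile normalization, averaging a gene's clusters, thresholds of 7.2, 8.2 and none, and, for hosts, members with 1 cluster only.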

Additional observations from a re-analysis of the deposited data

Results flagged for a closer look

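Transcript clusters annotated with several symbols, among them a microRNA or snoRNA symbol, were not members and stood out because they were not otherwise used. Of 98 such clusters, 25 had a mean of 7.7 or more. Of these, 15 were higher and 10 lower (median 0.12, range -0.73 to 0.44), and 1 was at least 1.5-fold lower. Among the 10500 single-symbol genes with such a mean, 41.1% were higher and 3.16% were at least 1.5-fold lower.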

How the results depend on the processing

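No paired analysis was possible because there was only 1 array of either genotype. Of the class, list and all-gene values recomputed under the alternatives, 104 stayed near the reported value and 26 moved. The microRNA median was 0.30 after centring and 0.15 with no filter. Without a filter, 78.7% of 296 microRNA genes were higher, 7 were at least 1.5-fold higher and 5 at least 1.5-fold lower. Of all 19938 genes, 91 were at least 1.5-fold higher and 403 at least 1.5-fold lower. With a filter of 7.2, 2 of 98 microRNA genes were at least 1.5-fold lower, beside 370 of all 12705 genes. With the trend removed, 2 of the 3 microRNA genes passed 1.5-fold. The C/D count at least 1.5-fold lower was 1 of 25 at 7.2 and 2 of 31 with no filter, beside the same counts of all genes. H/ACA and scaRNA genes were 47.4% higher with the trend removed and 52.6% under quantile normalization, with a median of 0.0046. The median of all genes was 0 after centring, -0.0035 with the trend removed, 0.0094 under quantile normalization, -0.00905 at 7.2, -0.074 at 8.2 and 0.059 with no filter. All genes were 51.8% higher under quantile normalization and 60.7% with no filter, and those at least 1.5-fold higher numbered 71 with centring and 91 without a filter. The median of microRNA biogenesis genes was 0.068 after centring and 0.073 under quantile normalization. For H/ACA core proteins it was -0.018 with the trend removed and -0.013 under quantile normalization, and for assembly factors -0.091 under quantile normalization. The causes were not tested. Across alternatives Mir505 ranged from 0.80 to 0.90, Mir328 from 0.60 to 0.70, Snora33 from -0.86 to -0.82, Snora44 from -0.85 to -0.77 and Snora69 from -0.65 to -0.59. Of 43 single members followed, 3 (Mir15a, Mir27a and Mir219a-1) changed sign under at least 1 alternative.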
